A study of Mus musculus with 25 samples.

Results

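The 10 genes described here are the ligands and receptors through which cells signal for vessel growth: the VEGF ligands Vegfa, Vegfb, Vegfc and Pgf, the VEGF receptors Flt1 (VEGFR1), Kdr (VEGFR2) and Flt4 (VEGFR3), the angiopoietins Angpt1 and Angpt2, and the angiopoietin-like gene Angptl4. They were chosen by symbol, and all 10 were found among the 55385 genes of the count files by their versioned Ensembl identifiers. RNA was sequenced from 5 murine melanoma lines grown in culture without any drug, with 5 biological replicates per line, 25 libraries in all. The study asked which molecular features, among them those of angiogenesis, go with the efficiency at which these lines colonise the liver.

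VEGF ligands are secreted dimers that bind receptor tyrosine kinases, which are best known from the endothelium. VEGF-A acts mainly through KDR on blood vessels, while FLT1 binds VEGF-A, VEGF-B and PlGF with high affinity and can act as a decoy, and VEGF-C drives lymphatic growth through FLT4. Angiopoietins bind the endothelial receptor TIE2, the product of Tek: ANGPT1 stabilises vessels, ANGPT2 often opposes it, and ANGPTL4 is a secreted inhibitor of lipoprotein lipase that does not bind TIE2.

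WT31 came from melanoma of mice with a tyrosinase-driven Nras transgene carrying Q61K on an INK4a-/- background. B16F10 luc2 is a luciferase-labelled B16F10 line. RET came from mice in which the metallothionein-I promoter drives the RET transgene. The study places these 3 lines together as HIM-melanoma, with high or intermediate efficiency of liver metastasis. D4M came from Tyr::CreER mice with a Braf CA allele, and HCmel12 from a primary melanoma of HGF-CDK4(R24C) mice, and these 2 lines form the LM-melanoma with low efficiency. No age is used here, every line is a single model, and RNA was taken from sub-confluent cells (50% confluency). D4M was grown in Advanced DMEM/F-12 and HCmel12 in RPMI with several additions. By the study's methods, B16F10 luc2, WT31 and RET shared a plainer RPMI medium. Line and medium thus cannot be told apart for D4M and HCmel12, and the medium follows the HIM and LM grouping.

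Depth was even, with 24199083 to 25843286 estimated counts per library, and a count of 3, taken as the floor of detection, was worth 0.12 CPM (counts per 1000000, scaled for library composition). D4M, which its label calls melanoma, was low in the pigment cell markers. The 7 melanocyte and melanoma markers summed to 12020 to 30190 CPM in the libraries of the other 4 lines. In D4M they summed to 6.54 to 59.6 CPM. The study reports that D4M formed white lesions in the liver, while most of its lines formed black or grey nodules. D4M replicate 1 held the highest of the D4M sums, against a median of 6.68 CPM, and HCmel12 replicate 4 stood apart in Vegfa and in several hypoxia-inducible genes, so results that rest on either library are also given without it. Of 10 endothelial markers, 3 to 5 were above the floor in each line. Pecam1 was at 1.497 ± 0.199 CPM in B16F10 luc2 and 0.789 ± 0.182 CPM in D4M, Tal1 at 5.22 ± 0.84 CPM in RET and at 0 counts in D4M, Vwf was highest in B16F10 luc2 and RET (0.870 to 1.82 CPM), and Esam and Robo4 had at most 9 and 5 counts in any library. Emcn, Cldn5 and Erg were at or under the floor in all 5 lines, and Cdh5 in 4, with 2 to 7 counts in the D4M libraries. The endothelial sum ran from 5.98 to 19.9 CPM in WT31, B16F10 luc2, RET and D4M and from 34.6 to 41.2 CPM in HCmel12, where Egfl7, which other cells also express, made up 33.7 to 40.4 CPM. The 8 pericyte and fibroblast markers summed to 628 to 1270 CPM in D4M and to at most 102.9 CPM in any other library, and the part of this difference in the results below was not tested. The leukocyte markers summed to 3.62 to 16.6 CPM in D4M and to 0.515 to 5.46 CPM in the other lines. Most of this was Cd68, which was above the floor in every line, and Csf1r was above it in D4M (0.549 ± 0.134 CPM) and just above it in B16F10 luc2, while Ptprc, Adgre1 and Cd3e were at or under the floor in every line. The part of these markers in the results below was not tested.

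Most members differed widely between lines, Vegfa and Vegfb less so. Flt1 was measurable in D4M and at the floor in the other 4 lines, Kdr in HCmel12 and at the floor in the other 4, and Flt4 was 27.6-fold higher in HCmel12 than in B16F10 luc2, the next line. Vegfa and Vegfb were present in all 25 libraries, with line means that differed by 3.02 and 2.42 times between the highest and lowest line. D4M carried a ligand set of its own, with the highest Vegfa and Pgf and the lowest Vegfb and Vegfc. Angpt2 was present in 4 lines and low in WT31, and Angpt1, Tek and Tie1 were near the floor in all.

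Vegfa (ENSMUSG00000023951.17, chr17:46016993-46032369, minus strand, GRCm38) encodes the central angiogenic ligand of the family. Its level in the 5 D4M libraries was 72.0, 60.1, 80.5, 74.3 and 62.5 CPM. The WT31 libraries gave 25.5, 26.3, 22.1, 23.4 and 18.7 CPM, those of B16F10 luc2 29.99, 28.4, 35.6, 33.7 and 24.5 CPM, and those of RET 27.0, 24.4, 20.1, 23.7 and 23.6 CPM. HCmel12 gave 26.6, 26.1, 32.2, 68.8 and 34.2 CPM. Every D4M library was above every WT31, B16F10 luc2 and RET library, while replicate 4 of HCmel12 lay within the D4M range and its other 4 libraries within that of B16F10 luc2.

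In the voom and limma fit, Vegfa in D4M was 3.02-fold higher than in WT31 (log2 fold change 1.59 ± 0.17 (SE), adjusted p = 5.96e-09), 2.94-fold higher than in RET (1.55 ± 0.17, adjusted p = 8.58e-09) and 2.30-fold higher than in B16F10 luc2 (1.20 ± 0.17, adjusted p = 3.79e-07). It was also 1.99-fold higher than in HCmel12 (0.99 ± 0.16, adjusted p = 6.48e-06). HCmel12 was above WT31 by 0.60 ± 0.18 and above RET by 0.56 ± 0.18 (adjusted p = 0.00491 and 0.00848). Without HCmel12 replicate 4 these differences were 0.36 and 0.32 (adjusted p = 0.0116 and 0.0245), and with only the 2 lines in the fit the RET call was lost (0.0569). Without replicate 4 the HCmel12 mean was 29.8 ± 4.05 CPM (SD, n = 4) in place of 37.6 ± 17.8 CPM (SD, n = 5). WT31 and RET, the lowest lines in the order, differed by 0.04 ± 0.19 (adjusted p = 0.865), and B16F10 luc2 did not pass the test against RET (adjusted p = 0.122), WT31 (0.0637) or HCmel12 (0.29). Without HCmel12 replicate 4, B16F10 luc2 was above RET (0.35, adjusted p = 0.0136), and WT31 was below it by 0.39 (adjusted p = 0.00418). The WT31 comparison was also called without B16F10 luc2 replicate 5 (adjusted p = 0.0355). With only the 2 lines of a comparison in the fit, both were called (WT31 0.0148, RET 0.0162).

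Vegfb (ENSMUSG00000024962.13, chr19:6982473-6987651, minus strand) encodes a ligand of FLT1 that is linked to metabolism and cell survival more than to sprouting. D4M held the lowest values, at 62.7, 58.6, 69.6, 55.2 and 48.5 CPM. The order of line means above it was 89.6 ± 9.47 CPM in B16F10 luc2, 104.8 ± 14.5 CPM in RET, 119.9 ± 4.96 CPM in WT31 and 142.4 ± 18.5 CPM in HCmel12 (SD, n = 5 each). No D4M library reached the lowest library of another line, which was B16F10 luc2 replicate 5 at 77.3 CPM. HCmel12 was 2.42-fold above D4M (1.27 ± 0.10 on the log2 scale, adjusted p = 8.95e-12). Neighbours in the order were closer: B16F10 luc2 and RET (adjusted p = 0.059) and RET and WT31 (adjusted p = 0.0585) did not pass the test, and WT31 was below HCmel12 by 0.24 ± 0.10 (adjusted p = 0.0278), a call that was lost without HCmel12 replicate 4 (0.17, adjusted p = 0.105) or 5 (0.0542) and without WT31 replicate 2 (0.0503) or 4 (0.0549), and with scaling by library size alone (0.0687). On log2(TPM + 1) the difference was 0.0751 (adjusted p = 0.445) and on log2(TPM + 0.1) 0.0755 (0.441). On both of these scales, and with scaling by library size alone, B16F10 luc2 against RET and RET against WT31 were called (adjusted p = 0.00128 to 0.033). RET against WT31 was also called with at least 10 counts in every library (0.0477), and B16F10 luc2 against RET by DESeq2 (0.0453) and with its size factors (0.0496). Both uncalled neighbours passed without D4M replicate 3 or 5 or HCmel12 replicate 4, RET against WT31 also without RET replicate 1, and B16F10 luc2 against RET also without B16F10 luc2 replicate 4 or RET replicate 3 (adjusted p = 0.0139 to 0.0492).

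Vegfc (ENSMUSG00000031520.6, chr8:54077606-54187096, plus strand), the lymphatic ligand, was lowest in D4M, with 27, 24, 20, 18 and 33 counts per library, or 1.08 ± 0.248 CPM (SD, n = 5). WT31 was highest, at 33.6, 29.7, 34.97, 36.5 and 31.6 CPM. B16F10 luc2 (19.1 ± 1.34 CPM), HCmel12 (19.5 ± 2.01 CPM) and RET (14.9 ± 1.83 CPM) lay between (SD, n = 5 each). Each WT31 library was above, and each D4M library below, every library of the other lines. Vegfc in D4M was 30.7-fold lower than in WT31 (log2 difference 4.94 ± 0.19, adjusted p = 3.9e-18) and 13.7-fold lower than in RET, the next lowest line (3.78 ± 0.20, adjusted p = 1.47e-15). WT31 was 1.74-fold above B16F10 luc2 and 1.71-fold above HCmel12 (adjusted p = 1.47e-09 and 2.94e-09), and B16F10 luc2 and HCmel12 differed by 0.03 ± 0.09 on the log2 scale (adjusted p = 0.818).

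Pgf (ENSMUSG00000004791.7, chr12:85166635-85177790, minus strand) encodes placental growth factor, a ligand of FLT1 and not of KDR. Its level was 41.6, 34.0, 46.2, 58.0 and 40.9 CPM in the D4M libraries. In the other 20 libraries it was 0.26 to 1.9 CPM, or 7 to 50 counts. Pgf in D4M was 35.4-fold higher than in WT31 (log2 difference 5.15 ± 0.28, adjusted p = 4.55e-15), which was next in the order, and 70.7-fold higher than in RET, which was lowest (6.14 ± 0.34, adjusted p = 7.16e-15). Of the 6 comparisons among the 4 low lines, only WT31 against RET passed the test (1.00 ± 0.43, adjusted p = 0.039), and that call was lost without WT31 replicate 1 (adjusted p = 0.0887) or 2 (0.0987) and without RET replicate 1 (0.0866), 2 (0.147) or 4 (0.0846), with no filter on low counts (0.0674) and with only the 2 lines in the fit (0.0572). WT31 against HCmel12 was called by edgeR (0.0378), DESeq2 (0.0195) and on log2(TPM + 1) (0.00972) and log2(TPM + 0.1) (0.0118), and B16F10 luc2 against HCmel12 with only the 2 lines in the fit (0.0415). B16F10 luc2 against RET, not called here (adjusted p = 0.0869), was called without RET replicate 3 (0.0331) or D4M replicate 4 (0.0494).

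**Figure D1:**
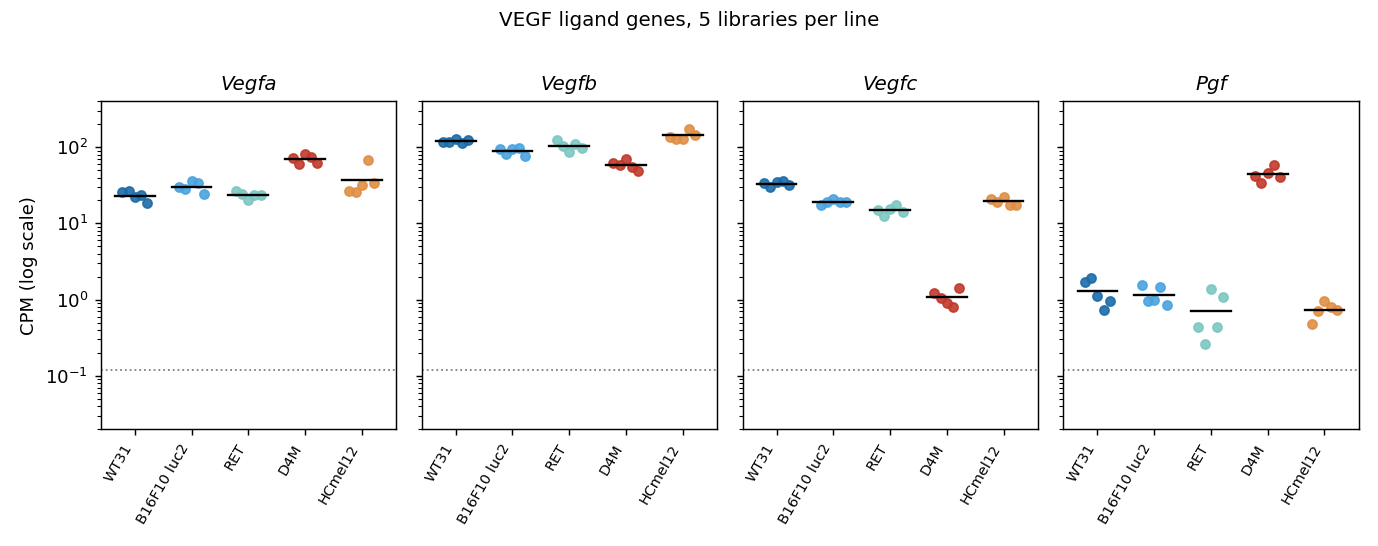
Level of 4 VEGF ligand genes in each library, in CPM on a log axis, by line. Points are libraries, black bars are line means (n = 5) and the dotted line is the floor of 3 counts (0.12 CPM). D4M is highest in Vegfa and Pgf and lowest in Vegfb and Vegfc, and a single HCmel12 point at 68.8 CPM of Vegfa sits at the D4M level.

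Levels of different genes can be set side by side only per transcript length, in transcripts per 1000000 (TPM), which were used for 24 libraries (D4M replicate 1 is not included). Vegfb was the most abundant of the 4 ligands in every line, with HCmel12 at 185.1 ± 17.3 TPM, WT31 at 175.2 ± 6.95, RET at 140.1 ± 16.96, B16F10 luc2 at 119.5 ± 9.7 and D4M at 71.3 ± 9.62 (SD, n = 5, or 4 in D4M). It made up 76.2 to 82.8% of the summed TPM of the 4 ligands in the mean of each line but D4M, where its share was 44.7 ± 4.58% (SD, n = 4). There Vegfa took 28.3 ± 0.636% and Pgf 26.5 ± 4.21%, while Vegfc took 0.409 ± 0.172%. In the other 4 lines Vegfa held 8.93 to 15.0%, Vegfc 5.5 to 10.6% and Pgf at most 0.767%. The summed TPM of the 4 genes was 159.6 ± 18.7 in D4M, close to the 156.8 ± 11.4 of B16F10 luc2 and the 169.0 ± 18.2 of RET, so that D4M differed in the make-up of its ligands more than in their sum. WT31 (219.6 ± 4.82) and HCmel12 (225.0 ± 25.9) had the higher sums. These shares were not tested.

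**Figure D2:**
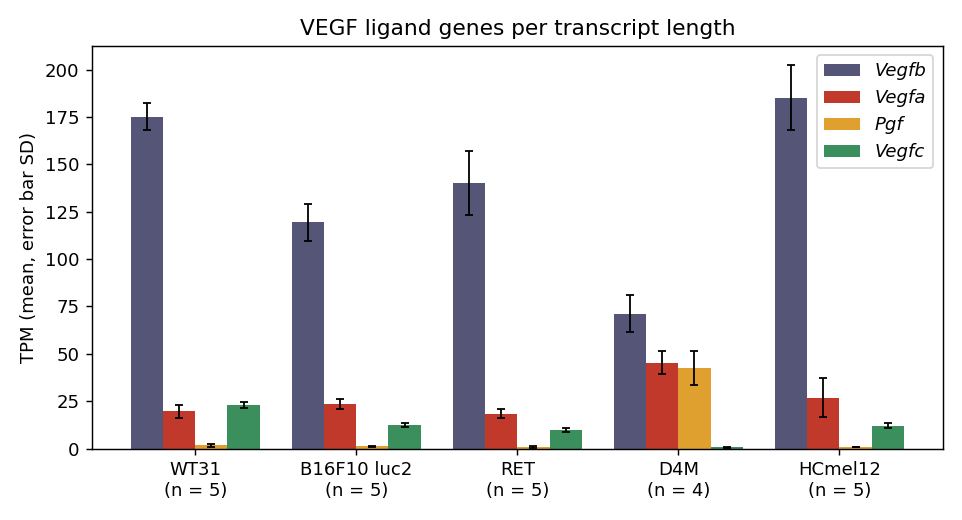
Mean TPM of the 4 VEGF ligand genes in each line, with the SD over 5 libraries (4 in D4M) as error bars and the axis starting at 0. Vegfb stands over the other ligands in all 5 lines, and in D4M Vegfa (45.3 TPM) and Pgf (42.5 TPM) come nearest to it (71.3 TPM).

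Flt1 and Kdr were at the floor in all lines but 1, and Vegfc and Pgf among the ligands, like the receptor Flt4, differed widely between lines. The bases before the start sites of Flt1, Kdr and Vegfc are shown for this reason, 5′ to 3′ on the gene's own strand, from the RefSeq promoter table of build GRCm38.p6, cut where the GENCODE gene begins, which left no bases for Flt4 and Pgf. They are chr5:147726012-147726261 (minus strand) for Flt1, chr5:75978459-75978705 (minus strand) for Kdr and chr8:54077282-54077531 (plus strand) for Vegfc. Capitals mark matches, on either strand, to GCGTG, a core of hypoxia response elements, and to TGACGTCA, the cAMP response element, which was chosen after the sequence was seen.
Flt1: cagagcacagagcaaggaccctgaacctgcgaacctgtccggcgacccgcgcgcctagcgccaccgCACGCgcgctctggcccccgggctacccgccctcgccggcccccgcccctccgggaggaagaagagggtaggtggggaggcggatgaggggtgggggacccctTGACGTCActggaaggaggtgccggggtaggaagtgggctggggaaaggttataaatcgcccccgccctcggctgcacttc
Kdr: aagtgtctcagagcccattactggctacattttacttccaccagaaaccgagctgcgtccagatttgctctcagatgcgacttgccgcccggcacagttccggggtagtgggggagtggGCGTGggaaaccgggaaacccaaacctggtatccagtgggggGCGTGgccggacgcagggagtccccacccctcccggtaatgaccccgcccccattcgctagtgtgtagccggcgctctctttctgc
Vegfc: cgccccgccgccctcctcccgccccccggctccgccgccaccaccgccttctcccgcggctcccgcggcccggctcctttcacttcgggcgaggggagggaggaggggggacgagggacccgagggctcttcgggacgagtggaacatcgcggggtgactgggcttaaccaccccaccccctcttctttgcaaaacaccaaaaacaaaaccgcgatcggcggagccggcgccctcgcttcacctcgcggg

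All 3 windows are rich in G and C, at 70.4% for Flt1, 61.5% for Kdr and 71.6% for Vegfc, against a median of 52.4% over the 250 bases before the start of all 32851 promoters in the table. GCGTG matched once before Flt1 and at 2 places before Kdr, and 28.2% of all promoters hold it. TGACGTCA matched once before Flt1, and 1.5% of all promoters hold it. ACGTG (held by 16.6% of promoters), the AP-1 motif TGANTCA (6.7%) and the M-box core CATGTG (12.3%), which pigment cell promoters carry, had no match in the 3 windows. ACGTG lies within neither GCGTG nor TGANTCA, and no 2 matches overlapped. A match describes the letters of the window and not a bound site.

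Flt1 (ENSMUSG00000029648.13, chr5:147561604-147726011, minus strand), the receptor for VEGF-A, VEGF-B and PlGF, had 3719, 4249, 4896, 4496 and 5184 counts in the D4M libraries, or 170.9 to 220.7 CPM. The other 20 libraries held 0 to 5 counts each: 6 in all over the 5 WT31 libraries, 6 over B16F10 luc2, 9 over RET and 4 over HCmel12. D4M thus stood alone, and the 4 low lines were all at or under the floor, so that no fold is given among them. The ratio of summed counts of D4M to RET was 2856, with an exact 95% interval of 1504 to 6246, and that to HCmel12 was 6203 (2422 to 22770). These intervals cover counting error only. Flt1 passed the filter on low counts only through D4M, as Kdr did through HCmel12, so that a test against the other lines would show what the filter had fixed and none is given.

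Kdr (ENSMUSG00000062960.10, chr5:75932827-75978458, minus strand), the main signalling receptor for VEGF-A, was found in HCmel12, with 757, 858, 960, 626 and 640 counts, or 30.9 ± 5.71 CPM (SD, n = 5). The other 20 libraries held 0 to 7 counts, the highest of them WT31 replicate 1. No library of another line came near HCmel12. The ratio of summed counts of HCmel12 to D4M was 349.0 (exact 95% interval 189.6 to 728.4) and to RET 663.1 (304.4 to 1808). Without HCmel12 replicate 4 its mean there was 32.4 ± 5.48 CPM (SD, n = 4).

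Flt4 (ENSMUSG00000020357.3, chr11:49609263-49652739, plus strand), the VEGF-C receptor of lymphatic vessels, was high in the same line, with 412, 408, 490, 421 and 431 counts in HCmel12, or 17.4 ± 1.44 CPM (SD, n = 5). B16F10 luc2 had 17, 18, 17, 17 and 9 counts and RET 5, 14, 9, 6 and 7. WT31 (0 to 6 counts) and D4M (0 to 4) were at or under the floor on average. Flt4 in HCmel12 was 27.6-fold higher than in B16F10 luc2 (log2 difference 4.79 ± 0.29, adjusted p = 8.51e-14) and 54.4-fold higher than in RET (5.76 ± 0.34, adjusted p = 5.29e-14). Against the lines at the floor the ratios of summed counts were 163.8 for WT31 (lower limit 97.4) and 245.6 for D4M (124.4 to 569.5). B16F10 luc2 and RET were both above WT31 and D4M (adjusted p = 2.9e-05, 6.9e-06, 0.00445 and 0.000841), at levels of under 20 counts per library, and did not differ beyond the threshold from each other (adjusted p = 0.0608). That comparison was called without B16F10 luc2 replicate 5, RET replicate 2, D4M replicate 3 or WT31 replicate 1 or 4 (adjusted p = 0.0275 to 0.0485), and by edgeR (0.0233), DESeq2 (0.00332), with only the 2 lines in the fit (0.0159) and on log2(TPM + 0.1) (0.00996). On log2(TPM + 1) the calls of RET against WT31 (0.243) and D4M (0.183) were lost.

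Per length, Flt1 in D4M reached 41.6 ± 4.01 TPM (SD, n = 4), a level like that of Vegfa in the same libraries (45.3 ± 6.03 TPM). Kdr in HCmel12 was at 7.42 ± 1.57 TPM and Flt4 at 3.94 ± 0.383 TPM (SD, n = 5). The receptor genes differed between the 2 LM lines: D4M held RNA of Flt1, and HCmel12 of Kdr and Flt4. None of these receptor genes was above the floor in both LM lines, and Flt1 and Kdr were not tested against the HIM and LM grouping. In the 3 HIM lines the highest TPM of any of these receptors in any library was 0.171, for Flt4 in B16F10 luc2 replicate 2.

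**Figure D3:**
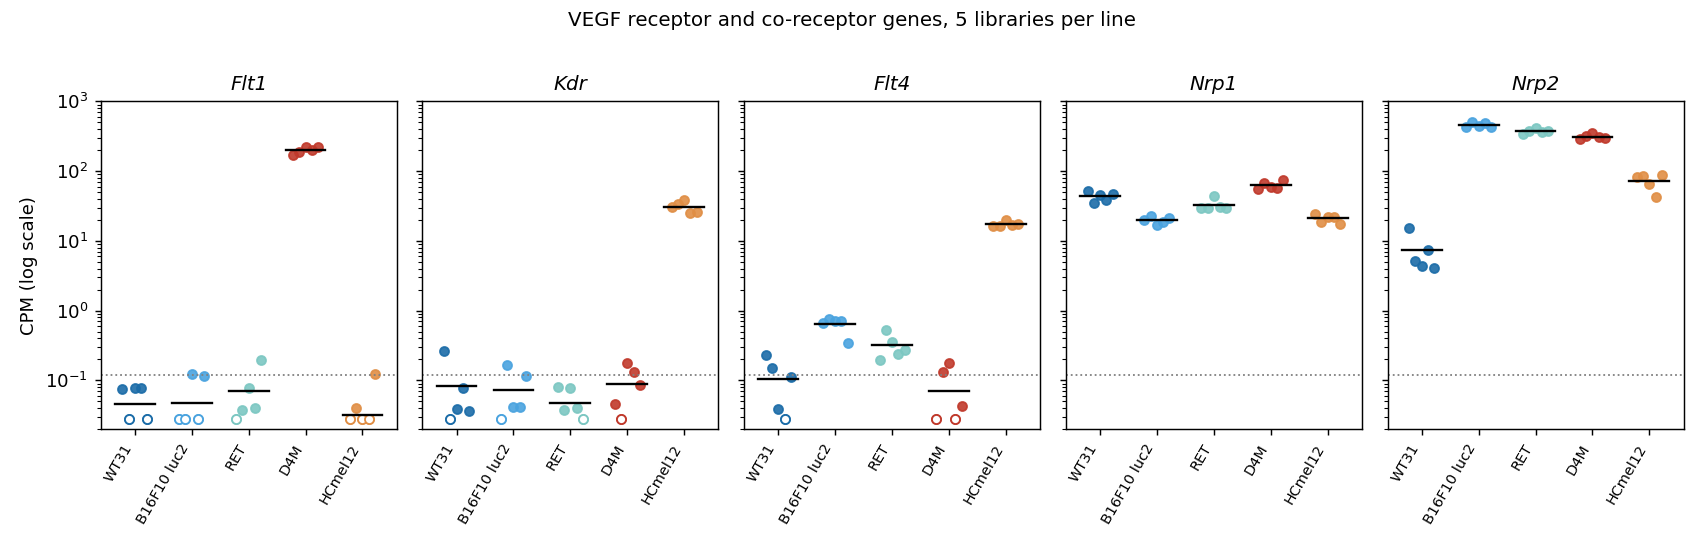
Level of 3 VEGF receptor and 2 neuropilin genes in each library, in CPM on a log axis, by line. Points are libraries (open points at the bottom edge had 0 counts), black bars are line means (n = 5) and the dotted line is the floor of 3 counts. Flt1 lies above the floor only in D4M and Kdr in HCmel12 apart from a few points just over the dotted line, while Nrp1 is measured in every library.

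Neuropilins are co-receptors without kinase activity that bind VEGF ligands. Nrp1 was measured in all 5 lines, from 19.9 ± 2.09 CPM in B16F10 luc2 and 21.1 ± 2.81 CPM in HCmel12 to 62.7 ± 8.53 CPM in D4M (SD, n = 5 each), with RET (32.5 ± 6.19) and WT31 (43.5 ± 7.15) between. Nrp2, the partner of FLT4 for VEGF-C, ranged more widely. It was 7.29 ± 4.78 CPM in WT31, where replicate 1 gave the highest value of 15.5 CPM, 72.9 ± 19.3 CPM in HCmel12, 311.4 ± 23.9 CPM in D4M, 373.6 ± 28.3 CPM in RET and 460.8 ± 32.0 CPM in B16F10 luc2. WT31 was below HCmel12, the next line, by 3.47 ± 0.25 on the log2 scale (adjusted p = 3.71e-12). The line with the most Vegfc was the line with the least Nrp2, and a link between them was not tested.

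Angpt2 (ENSMUSG00000031465.6, chr8:18690263-18741562, minus strand), the ligand that often opposes ANGPT1, had 21, 21, 21, 16.6 and 14 counts in WT31, or 0.713 ± 0.131 CPM (SD, n = 5). In RET it was 44.6, 43.9, 45.2, 46.7 and 44.5 CPM, an SD of 1.05 CPM. D4M gave 49.7, 43.3, 40.5, 26.9 and 38.3 CPM, HCmel12 30.2, 32.7, 33.1, 20.5 and 25.6 CPM, and B16F10 luc2 15.7, 12.5, 12.0, 11.6 and 16.02 CPM. Every WT31 library was far below every other library, and the B16F10 luc2 libraries were below those of RET, D4M and HCmel12. WT31 was 18.7-fold below B16F10 luc2 (log2 difference 4.22 ± 0.35, adjusted p = 4.27e-11) and 62.4-fold below RET (5.96 ± 0.34, adjusted p = 2.38e-14). B16F10 luc2 was below HCmel12 by 1.06 ± 0.15 (adjusted p = 6.03e-07), and HCmel12 below D4M by 0.47 ± 0.13 (adjusted p = 0.00153). RET and D4M did not differ beyond the threshold (0.21 ± 0.12, adjusted p = 0.114), but did without D4M replicate 1 (0.29, adjusted p = 0.0284) or with scaling by library size alone (0.41, adjusted p = 0.00293).

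The gene of Angpt2 lies within Mcph1, which runs on the opposite strand, but none of the 3690 exonic bases of Angpt2 are shared with exons of Mcph1. Mcph1 was at 22.7 ± 3.09 CPM in WT31, 25.1 ± 1.44 CPM in RET, 25.9 ± 2.76 CPM in HCmel12, 34.2 ± 1.41 CPM in B16F10 luc2 and 43.3 ± 2.69 CPM in D4M (SD, n = 5 each).

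Angpt1 (ENSMUSG00000022309.9, chr15:42424723-42676977, minus strand), the activating ligand of TIE2, was removed by the filter on low counts and has no test. It had 4, 2, 6, 3 and 4 counts in B16F10 luc2 and at most 4 in any library of the other lines, so the means of the other 4 lines were under the floor and no level was detectable there at this depth. Of its 31-base stretches, 14.06% also occur in other transcripts, mostly of the antisense gene Gm17473, while that share was at most 0.71% for the other 9 members. Its receptor Tek had 0 to 5 counts per library and the related receptor Tie1 also 0 to 5, and both were filtered out. Angpt4, another TIE2 ligand, reached 9 to 29 counts in B16F10 luc2 and at most 6 in any other library. Angpt2 was thus the only angiopoietin of the 3 with over 30 counts in a library. Ptprb, the phosphatase that acts on TIE2, was low throughout, at 1.05 ± 0.218 CPM in HCmel12 to 2.37 ± 0.975 CPM in D4M (SD, n = 5).

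Angptl4 (ENSMUSG00000002289.16, chr17:33773750-33781830, minus strand), which hypoxia, PPAR ligands and glucocorticoids are known to induce, had 245, 59, 201, 209 and 219 counts in D4M. HCmel12 had 7, 4, 7, 5 and 8 counts, WT31 1 to 4, RET 0 to 3 and B16F10 luc2 0 or 1. All D4M libraries were above all others, although replicate 2, at 2.62 CPM, was well under the 8.95 to 11.3 CPM of the other 4. The fitted level of Angptl4 in D4M was 28.4-fold that in HCmel12, and its ratio of summed counts to WT31 was 72.6 (exact 95% interval 43.8 to 130.2). HCmel12 held 31 counts in all, against 2 in B16F10 luc2, 6 in RET and 15 in WT31. Its ratio of summed counts was 15.5 to B16F10 luc2 (exact 95% interval 3.94 to 133.4) and 5.35 to RET (2.2 to 15.7). To WT31 it was 2.19 (1.15 to 4.37), and these intervals cover counting error only. Angptl4 passed the filter only through D4M, so no test of it is given.

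**Figure D4:**
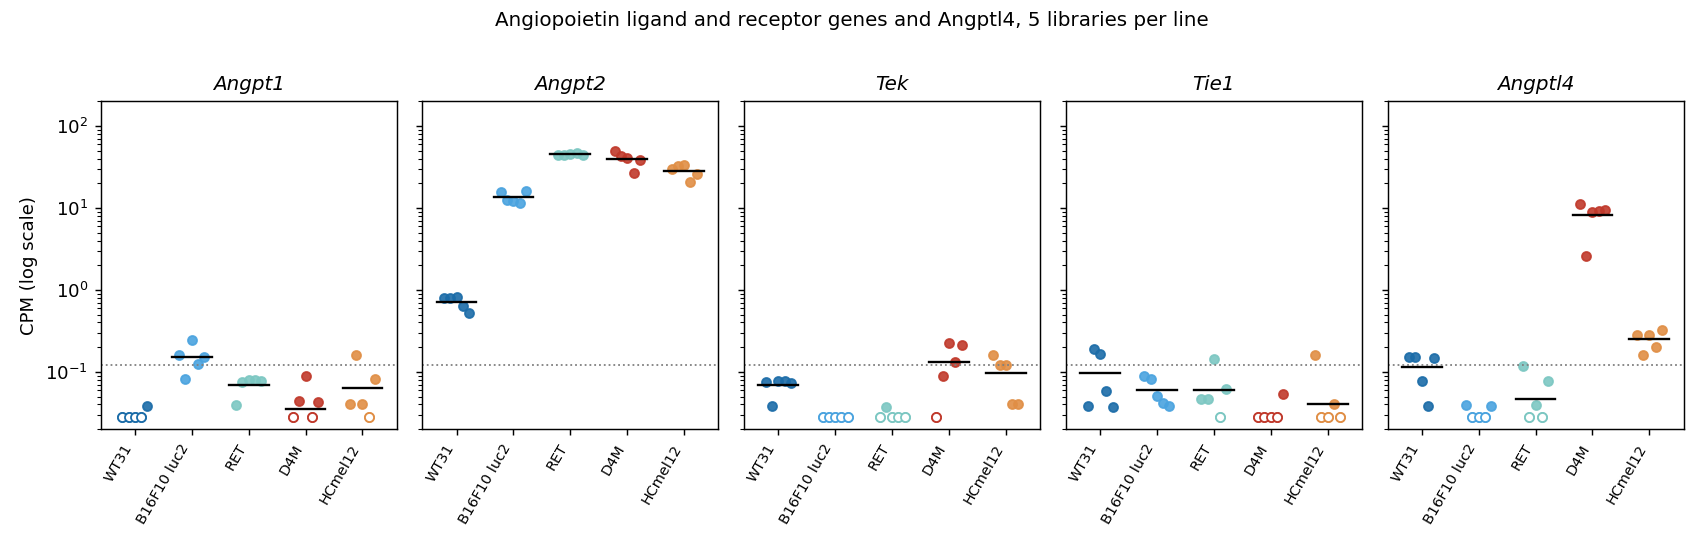
Level of Angpt1, Angpt2, their receptor genes Tek and Tie1, and Angptl4 in each library, in CPM on a log axis, by line. Points are libraries (open points at the bottom edge had 0 counts), black bars are line means (n = 5) and the dotted line is the floor of 3 counts. Angpt2 is under 1 CPM in WT31 and over 11 CPM in the other lines, Angptl4 is high in D4M, and Angpt1, Tek and Tie1 scatter around the floor.

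Flt1, Kdr and Angptl4 are left out of the counts that follow, since no library outside their highest line reached the level of the filter (10 counts in a library of median size, in at least 5 libraries). Calls over the other 6 tested members are read against the share of all 15247 tested genes that passed the same test, since these lines differ in most of what they express. D4M against HCmel12 called all 6, 3 higher in D4M (Vegfa, Pgf, Angpt2) and 3 lower (Vegfb, Vegfc, Flt4), against 72.5% of all genes. B16F10 luc2 against D4M called 6 (background 77.7%), WT31 against D4M 5 (76.1%) and RET against D4M 5 (77.1%). In all 3 of these Vegfa and Pgf were higher in D4M and Vegfb and Vegfc lower.

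Against HCmel12, WT31 differed in 5 of the 6 (background 70.4%), B16F10 luc2 in 3 (69.1%) and RET in 5 (67.2%). Flt4 and Vegfb were higher in HCmel12 in all 3 of these comparisons. Among the HIM lines, WT31 differed from B16F10 luc2 in 4 members (background 72.8%) and from RET in 4 (73.2%), in both with Vegfc higher and Flt4 and Angpt2 lower in WT31. B16F10 luc2 and RET, the closest pair of lines, differed in 2 (background 51.5%), with Vegfc higher and Angpt2 lower in B16F10 luc2, and this count was 4 without HCmel12 replicate 4, without D4M replicate 3 or without RET replicate 3. With 6 members and backgrounds this high, the number of members called is no result about these genes. The comparisons share lines and are not independent of each other. Beside them, the median log2 fold change of the 6 members ran from -0.54 (WT31 against D4M) to 0.52 (RET against D4M), where that of all tested genes, which the scaling keeps near 0, was between -0.01 and 0.01.

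With the line as the unit, the 3 HIM lines can be set against the 2 LM lines in 10 arrangements, and an exact two-sided permutation test cannot give a p under 0.1. Vegfa (mean log2 CPM 4.67 against 5.63) was lower in all 3 HIM lines than in both LM lines and reached that smallest p of 0.1. This separation was lost when D4M replicate 1 and HCmel12 replicate 4 were left out (exact p = 0.2), since B16F10 luc2 then stood above HCmel12. Vegfb, Vegfc, Pgf, Flt4 and Angpt2 gave exact p-values of 0.3 to 0.8. Flt1, Kdr and Angptl4, which passed the filter through 1 LM line each, are not tested in this way. No member was thus shown to follow the grouping by liver metastasis, which 5 lines could not show at a threshold of 0.05.

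The genes that process, release or transmit the signal of these ligands also differed between lines. Of all tested genes, 38.6% were higher in D4M than in WT31, 38.9% than in B16F10 luc2, 38.3% than in RET and 36.8% than in HCmel12, with 37.5, 38.8, 38.8 and 35.7% lower, and the counts of each list here and below stand beside these shares, with no test of a list. Of 6 genes of VEGF-C processing 5 were tested, and 4 were higher in D4M than in B16F10 luc2, RET or HCmel12 and 3 higher than in WT31. The median log2 fold change of the 5 was -2.28 in WT31 against D4M, -1.46 in B16F10 luc2 against D4M, -2.55 in RET against D4M and 2.27 in D4M against HCmel12, where the medians of all genes were between -0.01 and 0.01 here as in the lists below. Ccbe1, the cofactor that VEGF-C cleavage requires, was at 5.48 ± 1.03 CPM in D4M and 0.66 ± 0.0954 CPM in WT31 (SD, n = 5), and the other 3 lines held 2 to 4 counts over all 5 libraries. Adamts14, of the ADAMTS protease family, reached 155.8 ± 22.2 CPM in D4M and 56.5 ± 8.5 CPM in B16F10 luc2, with RET (8.89 ± 1.06) and HCmel12 (10.3 ± 2.05) lower, and 8 counts in all 5 WT31 libraries. Pcsk5, a proprotein convertase, was highest in WT31 (3.44 ± 0.955 CPM), the line with the most Vegfc. The line with least Vegfc had the most Ccbe1 and Adamts14, and a link of any of these genes to Vegfc was not tested. Vegfd, the other FLT4 ligand, was at 55 to 132 counts in D4M and at most 13.8 in any other library.

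Of 9 tested genes of VEGF release and receptor signalling, 6 were higher in D4M than in WT31 and B16F10 luc2 and 7 higher than in RET, and 6 higher than in HCmel12. In WT31, 7 were higher than in B16F10 luc2, 5 than in RET and 8 than in HCmel12 (all genes 36.4, 36.8 and 36.1%). The medians against D4M and of D4M against HCmel12 were -0.23 (WT31 against D4M), -1.04 (B16F10 luc2 against D4M), -0.81 (RET against D4M) and 0.68 (D4M against HCmel12). Shb, an adaptor of VEGF receptors, was at 25.8 ± 2.96 CPM in D4M, 18.1 ± 0.626 CPM in WT31 and 4.62 to 7.42 CPM in the means of the other lines. Hspg2, which encodes the heparan sulfate proteoglycan perlecan, ran from 76.2 ± 10.4 CPM in B16F10 luc2 to 407.9 ± 17.6 CPM in D4M, and the syndecan Sdc2 from 42.2 ± 2.02 CPM in HCmel12 to 205.3 ± 21.1 CPM in D4M (SD, n = 5 each). Of the 8 other VEGF and angiopoietin pathway genes (Vegfd, the neuropilins, Tek, Tie1, Angpt4, Ptprb and Svep1) 5 were tested. Vegfd passed the filter only because of D4M and Svep1 only through WT31, so their calls are left out here. Nrp1 was called higher in D4M than in every other line. Nrp2 was higher in D4M than in WT31 and HCmel12 but lower than in B16F10 luc2, and Ptprb was higher than in B16F10 luc2 and HCmel12. Svep1, which binds TIE1, was found in WT31, at 4.82 ± 0.688 CPM, with 0 to 2 counts in each library of the other lines. In the angiopoietin-like family, Angptl2 was highest in D4M, at 755.8 ± 66.5 CPM against 52.6 ± 3.87 CPM in HCmel12 (log2 difference 3.84 ± 0.13, adjusted p = 4.16e-19). Angptl1 was found in WT31 alone (23 to 49.9 counts). Angptl6 was lowest there, at 0.544 ± 0.217 CPM against 1.22 to 2.66 CPM in the other line means (in HCmel12, 1.25 to 1.75 CPM but for 7.09 CPM in replicate 4), and Angptl7 and Angptl8 had at most 6.86 counts in any library.

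Vegfa is a known target of hypoxia-inducible factors, and 13 other hypoxia-inducible genes were measured beside it. They did not move as a block in D4M: 7 were lower and 6 higher than in B16F10 luc2 and likewise against RET, 5 were higher and 5 lower than in HCmel12, and 9 were higher and 4 lower than in WT31. Their median log2 fold change was 0.23 in B16F10 luc2 against D4M, 0.26 in RET against D4M, 0.05 in D4M against HCmel12 and -1.07 in WT31 against D4M. In WT31, 10 were lower and 2 higher than in B16F10 luc2, 9 and 2 against RET, and 11 and 1 against HCmel12. The medians of these comparisons were -0.98, -0.78 and -0.49. Of all 15247 tested genes, 5550, 5550 and 5228 were lower in WT31. Adm was highest in WT31 (33.96 ± 5.62 CPM), Car9 in B16F10 luc2 (5.81 ± 0.722 CPM) and Ndrg1 in RET (123.0 ± 10.5 CPM). Of 9 oxygen sensing genes, all tested, 2 were higher and 5 lower in D4M than in WT31, 3 and 3 against B16F10 luc2, 3 and 2 against RET, and 3 and 2 against HCmel12. Egln3, itself induced by hypoxia, was at 131.7 ± 23.96 CPM in D4M against 0.925 to 4.68 CPM in the other line means, Epas1 was highest in WT31 (61.1 ± 13.3 CPM) and Hif3a was found in B16F10 luc2 (4.92 ± 2.01 CPM).

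Pdk1 and Bnip3, both on that list, were among the 3 genes whose log2 CPM followed Vegfa most closely over the 25 libraries (Pearson r = 0.941 and 0.931), with Mmp11 (0.946). Of the other 11 on the list, r was 0.837 for Slc2a1, 0.829 for P4ha1 and 0.778 for Ankrd37, and for the other 8 it was lower, at 0.258 for Ldha, 0.0736 for Adm, 0.029 for Aldoa, -0.0924 for Pgk1, -0.19 for Car9, -0.48 for Kdm3a, -0.51 for Ndrg1 and -0.61 for Hk2. In the D4M libraries Pdk1 was at 49.1, 38.1, 43.9, 50.3 and 45.0 CPM. In HCmel12 it was at 18.8, 18.2, 14.0, 58.5 and 22.5 CPM, and Bnip3 at 15.4, 16.8, 16.96, 65.5 and 20.95 CPM. The library of HCmel12 with high Vegfa was thus also the one with high Pdk1 and Bnip3, and it held the highest value of its line for 9 of the 13 hypoxia-inducible genes. B16F10 luc2 replicate 3, RET replicate 1 and D4M replicate 3 each held the highest of their line for 7 of them. Without the D4M libraries and HCmel12 replicate 4, r was 0.69 for Pdk1 and 0.652 for Bnip3 over 19 libraries. The points are libraries of 5 lines and not independent, so no test is given.

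**Figure D5:**
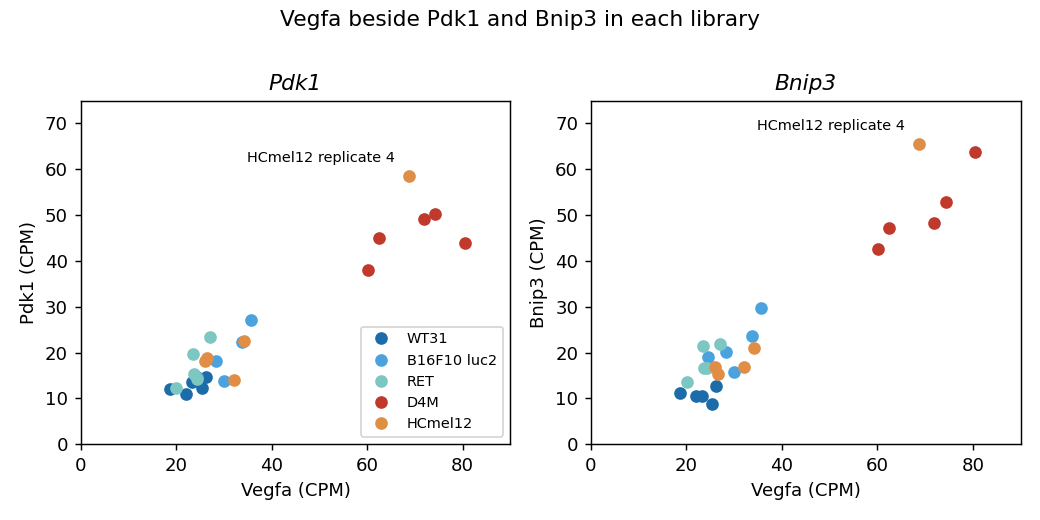
Pdk1 and Bnip3 against Vegfa in each of 25 libraries, in CPM on linear axes, coloured by line. The D4M libraries lie at 60.1 to 80.5 CPM of Vegfa with high Pdk1 and Bnip3, and HCmel12 replicate 4 lies with them, away from the other 4 HCmel12 libraries.

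Genes inducible through PPAR or by glucocorticoids, which share inducers with Angptl4, were read as a further list. That list also holds genes that encode the PPAR and glucocorticoid receptors themselves, so its counts are not of induced genes alone. Of 12 tested, 6 were higher and 4 lower in D4M than in WT31, 6 and 3 against B16F10 luc2, 6 and 1 against RET, and 4 and 5 against HCmel12. In HCmel12, 8 were higher and 1 lower than in WT31, 9 and 1 against B16F10 luc2, and 9 and 0 against RET. Of all genes, 34.3, 33.8 and 33.3% were higher in HCmel12 in these 3 comparisons. Their median was -0.34 in WT31 against D4M, -0.54 in B16F10 luc2 against D4M, -0.58 in RET against D4M and -0.16 in D4M against HCmel12. Pdk4 was found in both LM lines (3.45 ± 0.702 CPM in D4M and 3.56 ± 0.508 CPM in HCmel12), and Fabp4 was highest in HCmel12 (4.04 ± 1.33 CPM). Of 4 tested lipase genes, 2 were higher in D4M than in WT31, 3 than in B16F10 luc2, 2 than in RET and 1 than in HCmel12. Lpl, whose enzyme ANGPTL4 inhibits, was at 9.61 ± 2.08 CPM in D4M and 15.1 ± 2.9 CPM in HCmel12, and 0 to 0.245 CPM in the libraries of the other 3 lines. Lipg was highest in D4M (7.47 ± 1.47 CPM) and Lmf1 in WT31 (61.1 ± 9.14 CPM).

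The genes most like the other members over the 25 libraries mirrored the same line differences. For Vegfc they were Gpr37 and Gm10863 (r = 0.993 each) and Ptgds (0.989), for Flt1 Crabp1, Nrn1 and Cacna2d1 (0.994 each), for Pgf Heatr5a (0.983), Pi15 and Rnf11 (0.975 each), and for Angptl4 Pak1 (0.974), Spink2 (0.973) and Slc25a30 (0.972). For Kdr they were Pcbd1 (0.987) and Gm26800 (0.986), for Flt4 Tmem9 (0.976), Pth1r (0.974) and Fam20c (0.969), for Angpt2 Acyp2 (0.987), Gypc (0.982) and Abcg2 (0.981), and for Vegfb Serf2 (0.955), Cdip1 and Retreg2 (0.952 each). With 5 lines, many genes share a line order, and these values are a description only. Within lines, after the line means were removed, the closest were Bri3 (0.914), Cox6a1 (0.869) and Fkbp8 (0.868) for Vegfb, and Arpc5l (0.904), Pck2 (0.888) and Krtcap2 (0.885) for Vegfa, which fell to 0.715, 0.689 and 0.748 without HCmel12 replicate 4. For Angpt2 they were Tmem109 (0.805), Gsdme (0.782) and Myl9 (0.76). The within-line values of Vegfc (Penk, Amotl2 and Fam81a), Pgf (Trim9, Wdr13 and Cd200), Flt1 (Lrrc15, Gm4202 and Fscn1), Kdr (Syt7, Itga6 and Postn), Flt4 (2810430I11Rik and Rem2) and Angptl4 (Zfp820, Snap29 and Gm12500) were 0.681 to 0.827. All within-line values were picked as the highest among the tested genes, and Flt1, Kdr and Angptl4 were near the floor outside their highest line. They too are a description only, and whether they exceed chance was not tested.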

How the data were processed

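The authors trimmed the reads with Trim Galore 0.6.4 and quantified them with kallisto against GRCm38.p6, as the submitters' processing notes and the study's methods say. The annotation release, strand setting and step from transcripts to genes are not given in the sources used here. The authors deposited estimated counts per gene for 25 libraries, in which 24.5 to 26.6% of the values of a library are not whole numbers, and TPM per gene, used here for 24 libraries. Multi-mapping reads are shared out by the estimation, so similar genes can exchange counts.

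Of 55385 gene identifiers, 55144 were named from GENCODE M21, 54487 with the same version. Counts, rounded to whole numbers only for edgeR and DESeq2, were scaled by TMM (edgeR 4.0.16, R 4.3.3), filtered on low counts by filterByExpr with the line as group (15247 genes kept) and fitted by voom and limma 3.58.1 with a mean per line over all 25 libraries. All 10 pairs of lines were tested, with Benjamini-Hochberg adjustment per comparison and a threshold of 0.05 on the adjusted p, without a limit on fold change. CPM used TMM-scaled library sizes. Where a line averaged at most 3 counts per library, ratios of summed counts with exact 95% intervals stand in for fitted folds. All other fold changes come from the fit. In a simulation of WT31 against D4M over 14689 genes, 197 of 200 changed genes were recovered. Of the calls, 3.43% were false, against 4.35% with edgeR, 11.2% with DESeq2 and 5.29% with the replicate block. The changed genes averaged above the floor, with a median fitted log2 change of 1.99 in size, and all other genes were left unchanged. In the data, 76.1% of genes were called in this comparison, so the simulated rates do not carry over to it or to genes near the floor.

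The 50 pairs of replicates within lines differed by more than counting noise (chi-square over degrees of freedom 5.94 to 77.1). Pairs with HCmel12 replicate 4 gave 47.3 to 77.1 and pairs with WT31 replicate 5 gave 27.5 to 66.5. All other pairs gave at most 28.4. The labels call the replicates biological and do not say whether they were separate cultures in time, so p-values measure the spread between these samples. Genes were named by a rule: all members, all genes of the VEGF, angiopoietin and angiopoietin-like lists, up to 3 genes with the widest range of line means from each other list, and the 3 genes most correlated with each tested member across and within lines. Some genes and an allele that these rules or the labels name are not reported here. The members and lists were chosen with earlier results of these data known. Alternatives were edgeR, DESeq2 1.42.0, other scalings and filters, log2(TPM + 1) and log2(TPM + 0.1), fits of 2 lines, a replicate block and leaving out each library.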

Additional observations from a re-analysis of the deposited data

Results flagged for a closer look

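In 30 sets of 5 libraries (a member in a line with at least 10 counts on average), 3 held a library whose gap to the next was too large a part of the range. Chance gives about 1 in 20. They were Vegfa in HCmel12 replicate 4, at 68.8 CPM against 26.1 to 34.2 CPM in the other 4 libraries, Flt4 in B16F10 luc2 replicate 5, at 0.346 CPM, or 9 counts against 17 or 18, and Angptl4 in D4M replicate 2, at 2.62 CPM against 8.95 to 11.3 CPM. Without D4M replicate 2 the Angptl4 mean of D4M was 9.7 ± 1.05 CPM (SD, n = 4) in place of 8.28 ± 3.29 CPM (SD, n = 5).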

How the results depend on the processing

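Over 74 pairs of a tested member and a comparison, direction and side of the threshold held in 63 to 73 pairs under each alternative scaling, tool, filter or unit that kept all 9 members. The pairs include Flt1, Kdr and Angptl4, whose calls against their highest line the filter had fixed. For those calls the counts say nothing about stability. No count of genes called over all genes moved by more than 1.5 times. Counts of members here are over all 9 tested. The count of members called in B16F10 luc2 against RET was 4 in place of 2 under DESeq2, with only the 2 lines in the fit, with the replicate block, on log2(TPM + 0.1) and with D4M replicate 1 and HCmel12 replicate 4 left out together (an alternative chosen after seeing the data), and 2 to 4 with any 1 library left out. With at least 10 counts required in every library, fewer members were tested, and the count was 4 in WT31 against D4M, 4 in B16F10 luc2 against D4M, 2 in B16F10 luc2 against HCmel12, 3 in RET against D4M, 4 in RET against HCmel12 and 4 in D4M against HCmel12. Every log2 fold change that changed sign had not passed the test: Vegfa in WT31 against RET (0.0743 on log2(TPM + 1), 0.0776 on log2(TPM + 0.1), and -0.0987 to 0.0359 with 1 library left out), Angptl4 in WT31 against HCmel12 (0.00843 on log2(TPM + 1)), Vegfc in B16F10 luc2 against HCmel12 (0.0368 and 0.0399 on the same scales, -0.0619 to 0.0176 with 1 library left out) and Vegfa in B16F10 luc2 against HCmel12 (0.0259 without the 2 libraries, -0.322 to 0.0287 with 1 left out, the highest without HCmel12 replicate 4). With 1 library left out Pgf ran from -0.0654 to 0.272 in WT31 against B16F10 luc2 and from -0.568 to 0.0212 in RET against HCmel12. The causes were not tested. Scaling by library size alone moved the median of all genes by up to 0.23 (WT31 against D4M). The deviations of same-numbered replicates had correlations of -0.13 to 0.14, and those of different numbers -0.15 to 0.17. Of the same-numbered pairs, 4 of 50 were over 0.1, against 6 of 200 of the others. Whether same-numbered replicates shared a day or batch cannot be told from these values. The replicate block moved no other count of members by more than 1.5 times. Angptl4 aside, it added calls of Vegfa in WT31 against B16F10 luc2 (adjusted p = 0.0437), and of Pgf (0.0327) and Flt4 (0.0396) in B16F10 luc2 against RET, and changed no other call. Depth limits the genes at the floor: Flt1, Kdr, Angpt1 and Angptl4 below 3 counts in a library cannot be ranked between lines.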
